A study of Saccharomyces cerevisiae with 12 samples.

Results

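Glycerol is made in Saccharomyces cerevisiae from dihydroxyacetone phosphate, a glycolytic intermediate, by a glycerol-3-phosphate dehydrogenase (GPD1 or GPD2) and a glycerol-3-phosphatase (GPP1 or GPP2). It is the cell's main compatible solute under osmotic stress, and its synthesis reoxidises cytosolic NADH when fermentation leaves an excess of it. Cells lose glycerol through the channel encoded by FPS1 and take it up with protons through the symporter encoded by STL1. They burn it through a glycerol kinase (GUT1) and a mitochondrial glycerol-3-phosphate dehydrogenase (GUT2). These 8 genes were chosen by name, and all 8 were measured among the 5449 yeast genes on the array, each by 1 probe set of its own.

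Transcript levels came from 12 one-colour Affymetrix yeast arrays, 3 in each of 4 groups, all hybridised with RNA of EC1118, an industrial wine strain. The reference cells grew without stress in YPD, a rich medium with glucose, at 28 °C and were taken in mid-exponential phase at an optical density of 1.0. The 3 other groups are bottles of sparkling wine in second fermentation: yeast first adapted to ethanol went into base wine with sucrose at 20 g/L, and bottles of 350 mL stood sealed at 16 °C for some 40 days. They were opened at day 7, day 15 and day 19, by which the ethanol content had risen by 0.26%, 0.89% and 1.27%. Medium, temperature, ethanol, pre-adaptation and growth phase all differ between the bottles and the reference and cannot be told apart. Replicates are labelled as biological, and those of the bottles as independent bottling assays; nothing states that the reference replicates were grown apart, so their spread may be technical. In such bulk samples, fewer cells with a transcript and less of it per cell cannot be told apart either.

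Levels are the deposited log2 values, on which a difference of 1 is a doubling. Because probe sets differ in brightness, a level is compared between groups for the same gene, and a difference between paralogues on an array is read only for its shift between groups. Background was set by 1746 probe sets for another yeast, Schizosaccharomyces pombe, and lay between 4.50 and 4.82 on the 12 arrays. Day 7 replicate 1 (correlation with the other arrays of its day 0.892 and 0.893 across genes) and day 19 replicate 1 (0.817 and 0.847) stood apart, whereas the reference arrays correlated at 0.987 to 0.997. Ribosomal RNA probe sets averaged 6.40 ± 1.34 (SD, n = 3) in the reference and 12.20 ± 1.02, 12.37 ± 0.52 and 12.28 ± 0.79 at day 7, day 15 and day 19. The 3′ minus 5′ signal of 6 control genes, a sign of RNA length, was 0.86 ± 0.08 in the reference and 1.21 ± 0.13, 1.18 ± 0.11 and 1.19 ± 0.19 in the bottles. Both move with every comparison against the reference, and their part in the results below was not tested.

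Against the reference, the genes of glycerol uptake and breakdown were higher at every sampled day, those of synthesis changed unequally within each paralogous pair, and the export channel gene was lower. STL1, GUT1 and GUT2 rose at all 3 days, and GPP2 rose at day 7 and day 19. GPD2 and FPS1 fell at all 3 days, GPP1 fell at day 15, and GPD1 passed the test at none. At no day were both genes of a paralogous pair called. At day 7, limma called 4 of the 8 genes higher and 2 lower (Benjamini-Hochberg adjusted p under 0.05 over all genes tested), where 19.7% of all genes were called higher and 17.1% lower, 36.8% in all. That day 7 count of 2007 genes was 1322 without reference replicate 1 and 1271 without reference replicate 2. At day 15 it called 3 higher and 3 lower, where 21.4% of all genes were called higher and 23.5% lower, 44.9% in all. At day 19 it called 4 higher and 2 lower, where 22.7% were called higher and 20.8% lower, 43.5% in all. The median change of the 8 genes was 1.44, 0.47 and 0.68 at the 3 days, beside -0.03, -0.08 and -0.03 for all genes. At each day the arrays of 7 of the 8 genes did not overlap with those of the reference, beside 63.8%, 70.8% and 59.5% of all genes. These were not the same 7, as GPP1 overlapped at day 7 and GPD1 at day 15 and day 19. The 3 comparisons share the reference arrays, so they are not independent of one another.

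**Figure D1:**
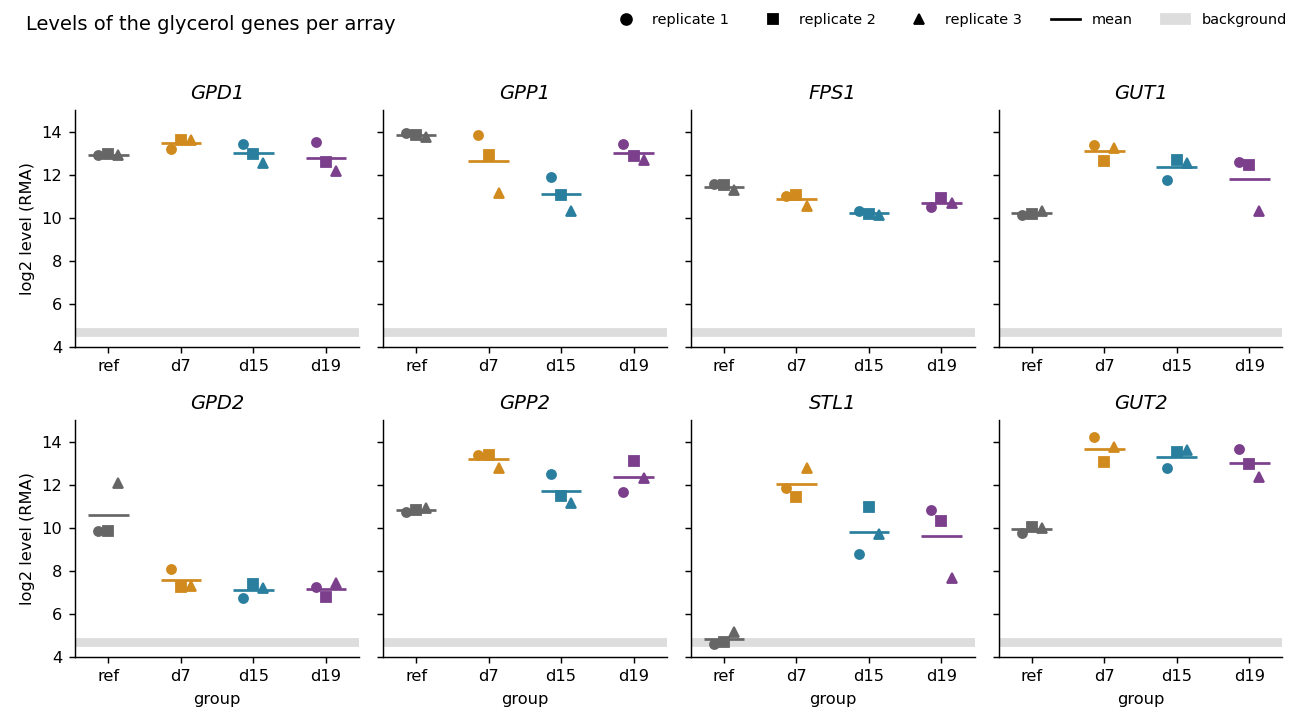
Log2 level (RMA) of each of the 8 genes on every array, by group (ref, reference; d7, d15 and d19, days of the second fermentation). Symbols mark the replicate, bars the mean of 3 arrays and the grey band the range of background over the 12 arrays. All 9 bottle arrays lie above the reference for STL1, GPP2, GUT1 and GUT2 and below it for FPS1 and GPD2.

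GPD1 encodes the dehydrogenase isoform best known from osmotic stress. Its level was 12.93, 12.94 and 12.90 on the 3 reference arrays, 13.20, 13.61 and 13.59 at day 7, 13.41, 12.98 and 12.56 at day 15, and 13.53, 12.58 and 12.15 at day 19. The day 7 arrays all lay above the reference, while those of day 15 and day 19 lay on both sides of it. The log2 change from the reference was 0.54 ± 0.33 (standard error, adjusted p = 0.215) at day 7, 0.06 ± 0.33 (adjusted p = 0.896) at day 15 and -0.17 ± 0.33 (adjusted p = 0.695) at day 19. Limma's error pools the spread of all 4 groups, which was unequal. The SD of GPD1 was 0.0245 in the reference and 0.235, 0.423 and 0.704 at day 7, day 15 and day 19. The 95% intervals of -0.18 to 1.26, -0.66 to 0.78 and -0.89 to 0.55 leave room for changes of either sign. The day 7 change passed the test in 3 of 23 alternatives. It passed without day 7 replicate 1 and day 19 replicate 1 (0.68, adjusted p = 0.0471). The others were the fit of only the 2 groups compared (adjusted p = 0.0314) and array weights (0.63, adjusted p = 0.00484). With limma's array weights the day 15 change was -0.29 (adjusted p = 0.0335), opposite in sign. These weights ran from 0.12 (day 19 replicate 1) to 14.1 (reference replicate 2), and their iteration stopped before convergence.

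GPD2, the isoform best known from anaerobic growth and redox balance, was lower in the bottles than in the reference at each day. Reference replicates 1 and 2 read 9.84 and 9.86 and replicate 3 read 12.07. Day 7 gave 8.10, 7.26 and 7.30, day 15 gave 6.71, 7.39 and 7.20, and day 19 gave 7.23, 6.80 and 7.41. Every bottle array lay below every reference array. Its log2 change was -3.04 ± 0.52 at day 7 (adjusted p = 0.00126), -3.49 ± 0.52 at day 15 (adjusted p = 0.00049) and -3.44 ± 0.52 at day 19 (adjusted p = 0.000522), which is 8.21-fold, 11.2-fold and 10.9-fold lower. These changes ranked 21, 8 and 15 from the lowest among 5449 genes. Its standard deviation in the reference, 1.28, exceeded that of 99.9% of genes, whose median was 0.118. Without reference replicate 3 the falls were smaller, at -2.30, -2.75 and -2.70, and limma's adjusted p was 0.00102, 0.000363 and 0.000376. With all arrays GPD2 had the most negative change of the 8 genes at each day, but at day 15 GPP1 did without that array (-2.80 beside -2.75 for GPD2) and with array weights (-3.38 beside -2.81).

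GPP1, one of a pair of near-identical glycerol-3-phosphatases, had its lowest levels at day 15. It read 13.93, 13.83 and 13.77 in the reference, 13.85, 12.91 and 11.15 at day 7, 11.89, 11.05 and 10.31 at day 15, and 13.42, 12.88 and 12.69 at day 19. Day 7 spread widely, from a level inside the reference range in replicate 1 to a level near the day 15 mean in replicate 3. GPP1 fell by 2.76 ± 0.58 at day 15 (adjusted p = 0.00309), or 6.79-fold. The changes of -1.21 ± 0.58 at day 7 (adjusted p = 0.118; 95% interval -2.47 to 0.05) and -0.85 ± 0.58 at day 19 (adjusted p = 0.25; -2.11 to 0.41) did not pass. The day 19 change passed in 1 of 23 alternatives, when only the groups compared entered the fit (adjusted p = 0.0274). At day 7 the result turned on single arrays: the change was -1.82 without replicate 1 (adjusted p = 0.0243) and -0.47 without replicate 3 (adjusted p = 0.439).

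GPP2, the phosphatase isoform known to be induced by high osmolarity, read higher in the bottles. It measured 10.74, 10.82 and 10.93 in the reference, 13.37, 13.38 and 12.78 at day 7, 12.48, 11.48 and 11.17 at day 15, and 11.65, 13.09 and 12.31 at day 19. No bottle array overlapped with the reference, and the nearest was day 15 replicate 3. GPP2 rose by 2.35 ± 0.39 at day 7 (adjusted p = 0.00114) and 1.52 ± 0.39 at day 19 (adjusted p = 0.00984), or 5.09-fold and 2.87-fold. At day 15 the change of 0.88 ± 0.39 did not pass (adjusted p = 0.0871), and it passed in 4 of 23 alternatives. It passed without day 19 replicate 1 (adjusted p = 0.0478) and without that array and day 7 replicate 1 (adjusted p = 0.0471). The others were the fit of only the groups compared (adjusted p = 0.0499) and array weights, at 0.45 (adjusted p = 0.0143). Without day 15 replicate 1 the change was 0.50 (adjusted p = 0.289).

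**Figure D2:**
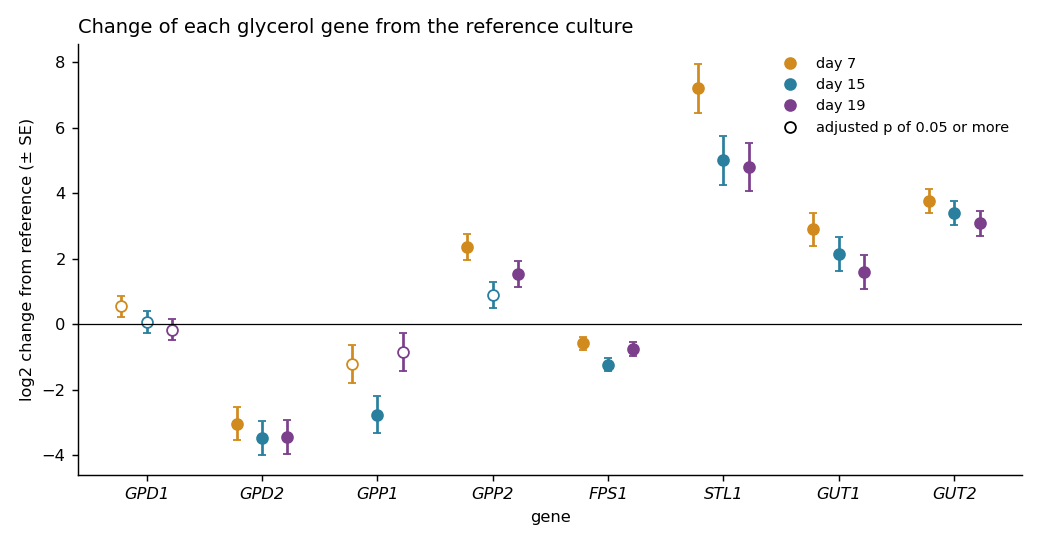
Log2 change of each gene from the reference at day 7, day 15 and day 19, with limma's standard error, pooled over the 4 groups (3 arrays per group). Filled points have an adjusted p under 0.05; STL1 stands highest at each day and GPD2 lowest (at day 15 GPP1 is lower, at -2.80 beside -2.75, without reference replicate 3, and with array weights), and the 3 points of GPD1 are open.

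The paralogues of each step changed unequally, as the shift between groups of their difference on each array shows; the difference itself also holds the probe sets' unequal brightness. GPD1 minus GPD2 was 3.09, 3.09 and 0.83 in the reference and ranged from 4.74 to 6.70 over the 9 bottle arrays. The mean difference was 3.47 larger in the bottles (exact two-sided permutation test, 9 arrays against 3, p = 0.0045, also 0.0045 after Benjamini-Hochberg adjustment over the 2 pairs). GPP1 minus GPP2 was 3.20, 3.01 and 2.85 in the reference and lay between -1.63 and 1.76 in the bottles, a mean shift of -3.19 (exact permutation p = 0.0045, adjusted 0.0045). Both values are the smallest p that 220 arrangements allow. The tests take bottles of 3 days as a single group and the reference arrays as independent, which is not stated. On all 9 bottle arrays GPD2 already lay below the reference and GPP2 above it. The pairs were also chosen with earlier results of these data known, so these p-values add no independent support to the shifts. Without reference replicate 3 the GPD1 minus GPD2 shift was 2.71 (exact permutation p = 0.0182). By day, the GPD shift was 3.58, 3.55 and 3.27 and the GPP shift -3.56, -3.64 and -2.37. With 3 arrays against 3 each exact p was 0.1, the smallest such a comparison can give. GPP1 and GPP2 are close in sequence, and although neither probe set carries a suffix that marks shared sequence, some cross-hybridisation between them was not tested.

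**Figure D3:**
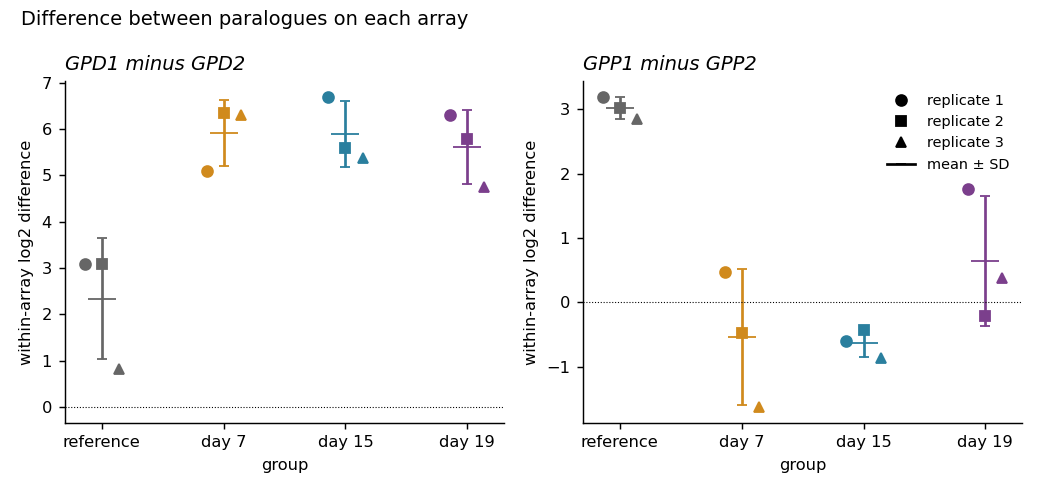
Within-array log2 difference between the 2 glycerol-3-phosphate dehydrogenase genes (left) and the 2 glycerol-3-phosphatase genes (right), by group. Symbols mark the replicate and bars the mean ± SD of 3 arrays; all 9 bottle arrays lie above the reference on the left and below it on the right.

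The 2 transport genes went in opposite directions. FPS1, the aquaglyceroporin that closes when cells need to hold glycerol, read 11.55, 11.50 and 11.29 in the reference, 11.00, 11.04 and 10.52 at day 7, 10.33, 10.19 and 10.12 at day 15, and 10.49, 10.90 and 10.67 at day 19. All 9 bottle arrays lay below the reference, with day 15 furthest from it. Its log2 change was -0.59 ± 0.20 at day 7 (adjusted p = 0.0395), -1.24 ± 0.20 at day 15 (adjusted p = 0.000858) and -0.77 ± 0.20 at day 19 (adjusted p = 0.0114). Only the day 15 fall, 2.36-fold, exceeded 2-fold. The day 7 call was lost without any 1 of the reference arrays (adjusted p = 0.13, 0.119 and 0.0606), without day 7 replicate 3 (change -0.43, adjusted p = 0.142), and, through the pooled spread, without day 15 replicate 2 or 3 (adjusted p = 0.0503 and 0.0549). It also depended on the scaling, and was lost after centring on S. pombe probe sets (-0.53, adjusted p = 0.0602).

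STL1, the glycerol and proton symporter that glucose is known to repress, had the largest fitted change of all 5449 genes at day 7. Its reference level was 4.58, 4.68 and 5.17, with only replicate 3 above its array's background. It read 11.87, 11.42 and 12.76 at day 7, 8.77, 10.96 and 9.71 at day 15, and 10.81, 10.32 and 7.69 at day 19. All bottle arrays lay far above the reference, but they differed from each other by up to 5.07. STL1 rose by 7.21 ± 0.75 at day 7 (adjusted p = 6.92e-05), 5.01 ± 0.75 at day 15 (adjusted p = 0.000517) and 4.80 ± 0.75 at day 19 (adjusted p = 0.000647). The corresponding folds of 148, 32.1 and 27.8 rest on a reference in which 1 of 3 arrays was above background, so these sizes and the ranks below are approximate. The day 19 change was 4.19 without day 19 replicate 1 and 5.76 without day 19 replicate 3. Its rank from the highest change was 1, 35 and 47, and its spread at day 15 and day 19 (SD 1.10 and 1.68) exceeded that of 97.7% and 97.2% of genes.

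GUT1, which phosphorylates glycerol, read 10.14, 10.15 and 10.29 in the reference, 13.39, 12.63 and 13.24 at day 7, 11.75, 12.70 and 12.56 at day 15, and 12.59, 12.44 and 10.32 at day 19. No array overlapped with the reference, but day 19 replicate 3 lay just above its highest array. GUT1 rose by 2.89 ± 0.51 at day 7 (adjusted p = 0.00163), 2.14 ± 0.51 at day 15 (adjusted p = 0.00628) and 1.59 ± 0.51 at day 19 (adjusted p = 0.0274), or 7.41-fold, 4.41-fold and 3.01-fold. The day 19 call did not hold without day 19 replicate 1 (1.18, adjusted p = 0.0851) or replicate 2 (1.26, adjusted p = 0.0923). It also failed without reference replicate 1, 2 or 3 (adjusted p = 0.0723, 0.0729 and 0.0599), and the change was 2.32 without day 19 replicate 3. The call was lost as well when only the 2 groups compared entered the fit (adjusted p = 0.07115). Without both day 7 replicate 1 and day 19 replicate 1 the change was 1.18 (adjusted p = 0.0833). With the stricter threshold of 0.01, the call was lost in 8 of 23 alternatives.

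GUT2, which passes the electrons of glycerol-3-phosphate to the respiratory chain, kept all its bottle arrays far from the reference. It read 9.74, 10.02 and 10.00 in the reference, 14.22, 13.04 and 13.78 at day 7, 12.79, 13.54 and 13.60 at day 15, and 13.65, 12.95 and 12.37 at day 19. Even the lowest bottle array, day 19 replicate 3, lay well above the highest reference array. GUT2 rose by 3.76 ± 0.37 at day 7 (adjusted p = 5.08e-05), 3.39 ± 0.37 at day 15 (adjusted p = 7.68e-05) and 3.07 ± 0.37 at day 19 (adjusted p = 0.000146), or 13.6-fold, 10.5-fold and 8.41-fold. These calls held under all 23 alternatives run, as did those of STL1 and GPD2. Many of the alternatives alter only the error or the threshold and leave the estimated change untouched.

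Within the bottles, 7 of the 8 genes had their highest mean at day 7; the exception was GPP1, highest at day 19. Limma's pairwise tests called 0 of the 8 genes between any 2 days, where 0%, 0% and 0.147% of all genes were called for day 15 against day 7, day 19 against day 15 and day 19 against day 7. At an unadjusted p under 0.05 they gave 4, 2 and 2 of the 8. The share of all genes at that unadjusted threshold was not counted, so these numbers show no excess. Limma's F-test over the 3 days called 0 of the 8, where it called 0.0367% of all genes; calls toward lower levels at day 19 than at day 7 covered 0.0184% of all genes. The order of the bottle means of a gene is therefore not resolved by these tests.

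The widest differences between days were those of STL1, GPP1 and GPP2. STL1 stood at -2.20 ± 0.75 for day 15 against day 7 (adjusted p = 0.424) and -2.41 ± 0.75 for day 19 against day 7 (adjusted p = 0.236). In both, its arrays did not overlap with those of day 7, and the second was -1.45 without day 19 replicate 3. GPP2 stood at -1.47 ± 0.39 for day 15 against day 7 (adjusted p = 0.424), again without overlap. GPP1 stood at -1.55 ± 0.58 for that comparison (adjusted p = 0.428), with overlap (-0.95 without day 7 replicate 1 and -2.30 without day 7 replicate 3), and at 1.91 ± 0.58 for day 19 against day 15 (adjusted p = 0.33), without it. FPS1 stood at -0.64 ± 0.20 for day 15 against day 7 (adjusted p = 0.424) and GUT1 at -1.30 ± 0.51 for day 19 against day 7 (adjusted p = 0.34), both without overlap; the GUT1 difference was -0.57 without day 19 replicate 3. In all, 3, 2 and 2 of the 8 genes did not overlap in the 3 comparisons, beside 15.3%, 12.7% and 12% of all genes.

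Other weights or sets of arrays gave calls between days. With array weights, limma called STL1, FPS1, GPD1, GPP1 and GPP2 lower at day 15 than at day 7, FPS1, GPP1 and GPP2 higher at day 19 than at day 15, and GPD1 lower at day 19 than at day 7. That fit called 1474, 804 and 444 of all 5449 genes in these comparisons. Its weights were very unequal, at 4.95 for day 15 replicate 3 beside 0.25 and 0.72 for replicates 1 and 2 of that day. Without day 19 replicate 1, STL1 (-3.02, adjusted p = 0.0397) and GPD1 (-1.10, adjusted p = 0.0339) were lower at day 19 than at day 7, among 393 genes called. Without day 19 replicate 3 the same differences were -1.45 and -0.41. Without day 15 replicate 1, GPP2 was lower at day 15 than at day 7 (-1.85, adjusted p = 0.0416), among 107 genes called. Day 19 replicate 3 held the lowest bottle level of 4 genes, STL1, GPD1, GUT1 and GUT2, and day 15 replicate 3 that of 3, FPS1, GPP1 and GPP2.

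Genes that act around these 8 were described in 8 lists of 70 genes. Their counts are to be read against the 36.8%, 44.9% and 43.5% of all genes called at day 7, day 15 and day 19, of which 19.7%, 21.4% and 22.7% were higher and 17.1%, 23.5% and 20.8% lower, and their medians against -0.03, -0.08 and -0.03. In the dihydroxyacetone route, a second way to use glycerol, 1 of 4 genes rose and 1 fell at each day, a share of 50% that is near that of all genes. GCY1, for which a glycerol dehydrogenase activity is described, rose by 2.98 ± 0.30, 3.16 ± 0.30 and 2.36 ± 0.30 (adjusted p = 5.90e-05, 4.17e-05 and 0.000194). DAK2, a dihydroxyacetone kinase gene, passed with -0.54, -0.59 and -0.66, but its reference mean of 4.58 lay at background. Of 6 measured genes for other channels and for Fps1 control, 1 rose and 1 fell at day 7, 1 and 2 at day 15, and 0 and 2 at day 19. These shares of 33.3%, 50% and 33.3% are near or below those of all genes. ASK10 and RGC1 encode paired regulators that open the Fps1 channel: ASK10 fell, with log2 changes of -1.09, -1.51 and -1.39 (adjusted p = 0.0108, 0.0016 and 0.00272), whereas RGC1 rose by 0.87 and 0.90 at day 7 and day 15 (adjusted p = 0.0289 and 0.0211). AQY2, a water channel gene, fell, with changes of -1.27 and -1.86 at day 15 and day 19 (adjusted p = 0.0102 and 0.00148).

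The high osmolarity glycerol pathway is the kinase cascade that drives GPD1, GPP2 and STL1 under osmotic stress, and it acts by phosphorylation. Of its 22 genes, 2 rose and 4 fell at day 7, 1 and 5 at day 15, and 3 and 6 at day 19, with medians of 0.07, -0.21 and -0.18. In all 27.3%, 27.3% and 40.9% of them were called, beside 36.8%, 44.9% and 43.5% of all genes. SHO1 and MSB2, sensors of one branch, fell at day 7, with changes of -1.14 and -1.03, and OPY2, a membrane anchor of that branch, rose by 0.97 (adjusted p = 0.00651, 0.0283 and 0.0397). HOG1, its final kinase, which is named here after its values were seen, stood at -1.03, -0.52 and -1.19 (adjusted p = 0.0431, 0.257 and 0.021). Of 9 measured osmotic stress target genes, 8, 9 and 7 rose and 0 fell, with medians of 2.53, 2.75 and 2.56. That is 88.9%, 100% and 77.8% called higher, beside 19.7%, 21.4% and 22.7% of all genes. Examples at day 7 were SIP18, a hydrophilin gene, at 5.36 ± 1.13, and CTT1, cytosolic catalase, at 4.36 ± 0.43 (adjusted p = 0.00433 and 4.72e-05). Several of these targets also answer to other stresses.

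Of 13 regulators of growth on glycerol, 8, 8 and 7 rose and 0 fell, with medians of 1.29, 1.17 and 1.07 beside -0.03, -0.08 and -0.03 for all genes. That is 61.5%, 61.5% and 53.8% called higher, beside 19.7%, 21.4% and 22.7% of all genes. CAT8 and ADR1, activators of genes for non-sugar carbon sources, rose by 4.45 ± 0.62 and 3.11 ± 0.42 at day 7, and RSF1, needed for growth on glycerol, by 2.13 ± 0.31 (adjusted p = 0.000372, 0.000311 and 0.000486). The counts do not separate activators from repressors, so they give no direction of effect. The repressor gene OPI1 also rose, by 1.499, 1.421 and 1.58 at the 3 days (adjusted p = 0.001736, 0.00183 and 0.001104). SNF1, a kinase gene in the list, passed at no day (adjusted p = 0.1075, 0.1928 and 0.08752). Of 4 genes for other routes of NADH reoxidation at mitochondria, 3 rose at each day, or 75%. The external NADH dehydrogenase genes NDE1 and NDE2 rose by 2.12 ± 0.33 and 4.19 ± 1.06 at day 7 (adjusted p = 0.000835 and 0.0107). Of the 4 measured triose phosphate genes, which handle the precursor of glycerol, only TDH1 passed, rising by 0.94, 0.96 and 0.88, or 25% of the list at each day (adjusted p = 0.00171, 0.00119 and 0.00208). Of 5 genes for early steps of lipid synthesis around glycerol-3-phosphate, 1 rose and 3 fell at day 7, 0 and 3 at day 15, and 1 and 3 at day 19. Those are 80%, 60% and 80% called, beside 36.8%, 44.9% and 43.5% of all genes, in a list of 5. Only the 2 acyltransferases of the first step, SCT1 and GPT2, take glycerol-3-phosphate itself, and they differed. SCT1 fell by 0.85 ± 0.23 at day 7 and GPT2 rose by 2.01 ± 0.47 (adjusted p = 0.0145 and 0.00763).

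**Figure D4:**
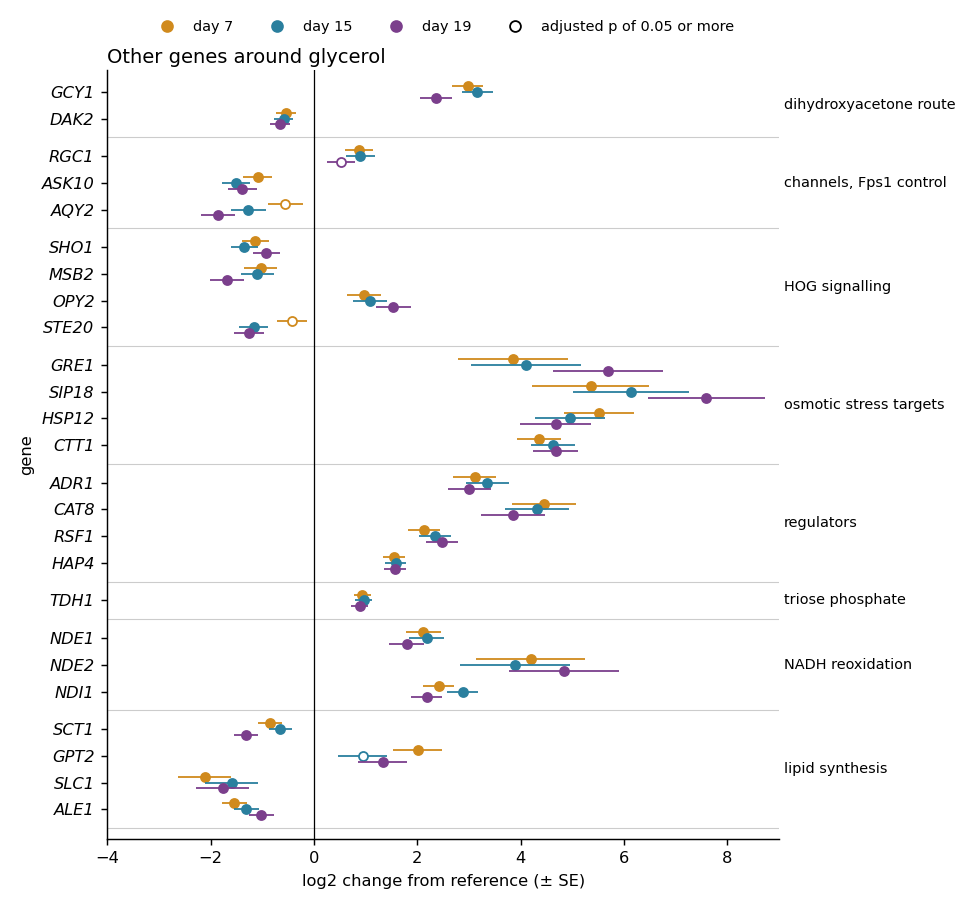
Log2 change from the reference, with limma's standard error pooled over the 4 groups (3 arrays per group), for the genes named from the 8 lists around glycerol. Filled points have an adjusted p under 0.05; the osmotic stress targets, regulators and NADH reoxidation genes shown lie to the right of 0, and SHO1, MSB2, ASK10, SLC1 and ALE1 to the left.

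Likeness of pattern was measured as the root mean square distance over the 12 arrays after each gene was centred on its own mean, so a small value on the log2 scale means a similar course. For STL1, whose own spread about its mean was 2.77, the nearest genes were HSP12 at 0.80, NQM1 at 0.91 and CSM4 at 0.95; the reference mean of CSM4, 3.57, lay below background, so it entered the candidates through its bottle levels. For GUT1 (own spread 1.21) they were ALD4, YMR196W and GPH1 at 0.36, 0.36 and 0.38, and for GUT2 (1.55) FMP46, CMC4 and BDH2 at 0.34, 0.35 and 0.36. GPP1 (1.20) was nearest to RSA4, ALB1 and IPI1 at 0.48, 0.52 and 0.53, and GPP2 (0.96) to BRN1, SKS1 and RRG8 at 0.36, 0.47 and 0.48. The nearest genes to GPD2 (1.56) were NRT1, MCD1 and EMP70 at 0.76, 0.81 and 0.81, distances that include the high reading in reference replicate 3. GPD1 (0.44) was nearest to YDL144C, LSB3 and YPR1 at 0.19, 0.20 and 0.20, and FPS1 (0.47) to DFR1, ILV2 and RRP42 at 0.17, 0.20 and 0.21. None of the 8 genes was among the 3 nearest of another.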

How the data were processed

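Total RNA was labelled with biotin by 3′ in vitro transcription, per the labels' protocols. The deposited values are log2 summaries per probe set made by the authors with RMA, per the submitters' processing notes; as a method RMA corrects background, normalizes across arrays and summarizes probes, and which program ran it is not given in the sources used here. No value was rescaled. The annotation gave 5498 of 10928 probe sets exactly 1 S. cerevisiae gene, and the brightest probe set on average was kept for each of 5449 genes, named through RefSeq R64. Tests used limma 3.58.1 under R 4.3.3 (lmFit, eBayes), with 1 fit of 4 groups and 12 arrays, with Benjamini-Hochberg adjustment over all genes within each comparison; standard errors and intervals are limma's moderated ones. Each array's background is the level under which a share of 0.95 of its S. pombe probe sets lie (4.62 pooled). The number of arrays, 3 per group, limits the precision. On simulated data (day 7 against the reference, 5449 genes) the test found 33.7% of 98 genes given a log2 change of 1 and 77.5% of 102 given 2. Of its 118 calls, 6 were false. Only those genes were changed, and each gene had normal noise of the same spread in every group. The real comparison called 2007 genes and the spread differed between groups, so these rates need not hold for it. The 8 genes, lists and tests were chosen with earlier results of these data known. The rule named the 8 genes, the 3 nearest genes of each among those above background with a probe set of their own, and up to 4 called members per list with the largest change from the reference. AQY3, ENA1 and TDH2 were not analysed here. Alternatives were other scalings, gene filters, variance models, array weights, a replicate block, a stricter threshold and arrays left out. Figures were drawn with matplotlib 3.10.9 in Python 3.11.15.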

Additional observations from a re-analysis of the deposited data

How the results depend on the processing

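Of 18 calls against the reference, 15 held under all 23 alternatives; the exceptions were FPS1 at day 7 and day 19 and GUT1 at day 19. Over the 552 values of the 8 genes against the reference, 520 kept their sign and side of the threshold, 17 lost and 12 gained a call and 3 changed sign. Gene filters, variance models, the replicate block, the stricter threshold and left-out arrays of uncompared groups leave the estimated change itself untouched. Such alternatives could alter a call but not a sign, so the 552 values are not that many separate checks. Of 2 genes lower at day 7, 1 remained in the count after centring on S. pombe probe sets and at adjusted p under 0.01, and 1 to 3 with each array left out in turn (3 without day 7 replicate 1, where GPP1 was called); at day 19 the stricter threshold left 1 of 2 (FPS1, at 0.0114, was lost). Array weights (whose iteration stopped before convergence) gave 5 genes lower for day 15 against day 7, 3 higher for day 19 against day 15, 1 lower for day 19 against day 7 and 5 in the F-test, in place of 0 each, and all-gene counts of 1474, 804 and 444 in place of 0, 0 and 8; against the reference they were 3483, 4437 and 3242 in place of 2007, 2447 and 2372. With single arrays left out these ranged over 1271 to 2469, 1697 to 2849 and 1582 to 2547. Without day 7 replicate 1 and day 19 replicate 1, 1 gene was lower at day 19 than at day 7 (GPD1, -1.24, adjusted p = 0.0237) and 1 passed the F-test, and all-gene counts were 3, 261 and 534. With single arrays left out, 0 to 1 gene was lower at day 15 and 0 to 2 at day 19 than at day 7. The following signs changed. GPD2 for day 19 against day 15 (0.05) was -0.0033 with median centring, -0.0103 with quantile normalization, -0.23 with array weights and -0.15 to 0.22 with single arrays left out. GUT2 for day 15 against day 7 was 0.18 with array weights, and GPD1 at day 15 against the reference was -0.29 with array weights and -0.15 to 0.27 with single arrays left out. With single arrays left out, the ranges that crossed 0 were also -0.56 to 0.13 for GPD1 at day 19 against the reference, -0.81 to 0.75, -0.62 to 0.0693 and -0.96 to 0.18 for STL1, GPD1 and GUT1 at day 19 against day 15, and -0.38 to 0.97 for GPP1 at day 19 against day 7. The cause of these changes was not tested. Replicate numbers are shared between groups. Same-numbered arrays deviated with correlations of -0.277 to 0.414 (median 0.055) over 18 pairs, of which 7 exceeded 0.1. Differently numbered arrays gave -0.496 to 0.417 (median -0.010) over 36 pairs, of which 8 exceeded 0.1. These values do not settle whether the numbers mark pairs, and the main fit did not take them as pairing. With the replicate block, 3 genes were lower at day 7 in place of 2 (GPP1, adjusted p = 0.0431) and no other count of the 8 genes changed; the GPD1 minus GPD2 and GPP1 minus GPP2 shifts of 3.47 and -3.19 had an exact permutation p = 0.0156 each.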

Other observations

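The high GPD2 reading in reference replicate 3 was not alone. Among 5335 genes whose levels on reference replicates 1 and 2 lay within 0.5 of each other, 19 were more than 1 higher and 18 more than 1 lower on replicate 3 than the mean of those arrays, and GPD2 ranked 2 from the highest with 2.22. GIS3 stood furthest above (3.11), and BSC1 and SWC7 furthest below (-2.76 and -2.54). Counted the same way, replicate 1 had 1 gene higher and 4 lower, and replicate 2 had 0 and 1. These genes were picked after their values were seen, and no test was made.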
